A study of Glycine max with 12 samples.

Results

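The genes described here were already expressed in soybean (Glycine max) roots without aluminium and stood far higher in roots given aluminium, in both of the lines sequenced. A gene's level was its CPM, the count divided by the library's total and multiplied by 1000000. Rows of the count table were kept where the mean was 10 CPM or more in the untreated libraries of both lines. Each row then got a score, the smaller of its 2 ratios of mean CPM with aluminium over mean CPM without, 1 ratio per line. Of the 56877 rows with values, 18424 passed the minimum, 677 of these had a score of 2 or more, and the 200 with the highest scores are the members. The members were thus chosen by their CPM in all 12 libraries and by their ratios with aluminium, so the rise with aluminium is described and not tested.

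The study sequenced total RNA from roots of 2 genotypes, labelled OX and WT, each grown with 50 µM AlCl3 (Al) or with 0 µM AlCl3 (CK). There were 3 libraries in each of the 4 groups: OX_Al, WT_Al, OX_CK and WT_CK. The meaning of OX and the gene it concerns are not in the labels, nor are the plants' age, the length of the Al treatment or any pooling. Since separate plants or cultures per library are not stated either, a p-value here reflects how far these libraries scatter, in part perhaps for technical reasons. A library held 15923413 to 18399566 counts in total, and a member had a median of 1109 counts per library and at least 46 in any of them.

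In acid soils aluminium dissolves in ionic form and stops the growth of root tips, where it binds to the pectin of cell walls and to membranes. Plants that tolerate it are known to release organic acids such as citrate and malate, which bind the metal outside the root, and to store it in vacuoles in bound form. Roots exposed to it are also known for changes in cell wall enzymes, in detoxification of reactive oxygen and in phenolic compounds. Whether the members belong to these processes could not be read from the sources used here. The file gives identifiers without names, and none of them matched the reference table of 59048 genes. The members are therefore named by identifier, without a role, and the labelled tissue could not be checked against its marker genes.

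Together the members took about 5% of all counts with Al and about 1% or less without it. In OX_Al they held 4.98%, 5.84% and 5.85% of the counts of the 3 libraries, and in WT_Al 5.84%, 5.32% and 4.81%. In OX_CK they held 0.811%, 1.28% and 1.18%, and in WT_CK 0.513%, 0.543% and 0.606%. Every Al library was thus above every CK library, the lines overlapped with Al, and each OX_CK library was above each WT_CK library. The roots were measured in bulk, so more cells of a type and more RNA per cell cannot be told apart.

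**Figure D1:**
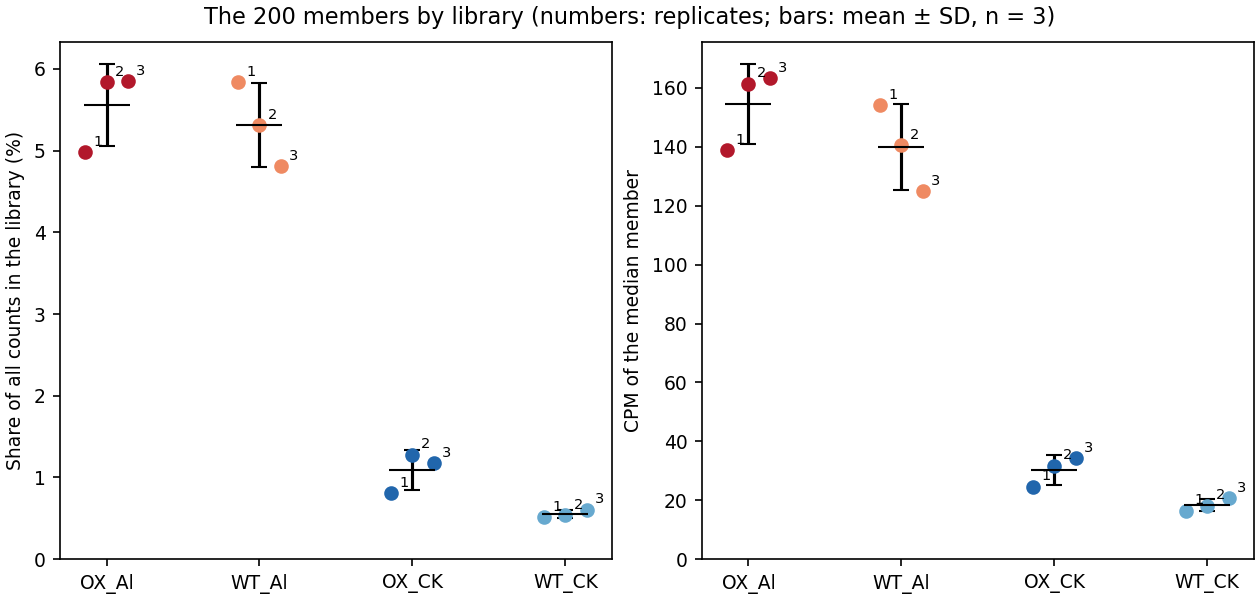
The left panel plots the share of all counts (in %) taken by the 200 members in each library, and the right panel the CPM of the median member in each library. Points are libraries with their replicate numbers, and bars are group means ± SD (n = 3). The OX_CK libraries, at 24.6, 31.8 and 34.3 CPM for the median member, lie above the WT_CK libraries, at 16.5, 18.1 and 20.7 CPM.

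The ratio of Al over CK was larger in WT than in OX for most members. Its median over members was 4.51 in OX, with a range of 3.32 to 21.4, and 6.45 in WT, with a range of 3.32 to 155. It was 10 or more for 11 members in OX and for 51 in WT. The ratio in OX was the smaller of the 2, and so set the score, for 162 of the 200 members and for 508 (75.04%) of the 677 rows with a score of 2 or more. Over all 18424 rows past the CPM minimum, it was the smaller for 55.6%, and the median ratio was 0.843 in OX and 0.848 in WT. The last member inside the list had a score of 3.318 and the first row outside 3.316, so the list ends within a continuous run of scores.

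All members were called higher with Al in both lines by edgeR's quasi-likelihood test, at a Benjamini-Hochberg adjusted p under 0.05 among the 37170 genes that entered the fit. Over all genes tested, 21.2% were called higher with Al in OX and 21.5% in WT. In each line the 3 Al libraries lay above the 3 CK libraries for all 200 members, against 17% of the rows past the minimum in OX and 16.3% in WT. These counts follow from how the members were chosen, and nothing is read from them. The median log2 fold change of the members was 2.34 in OX and 2.87 in WT, against -0.08 and -0.06 over the rows past the minimum.

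**Figure D2:**
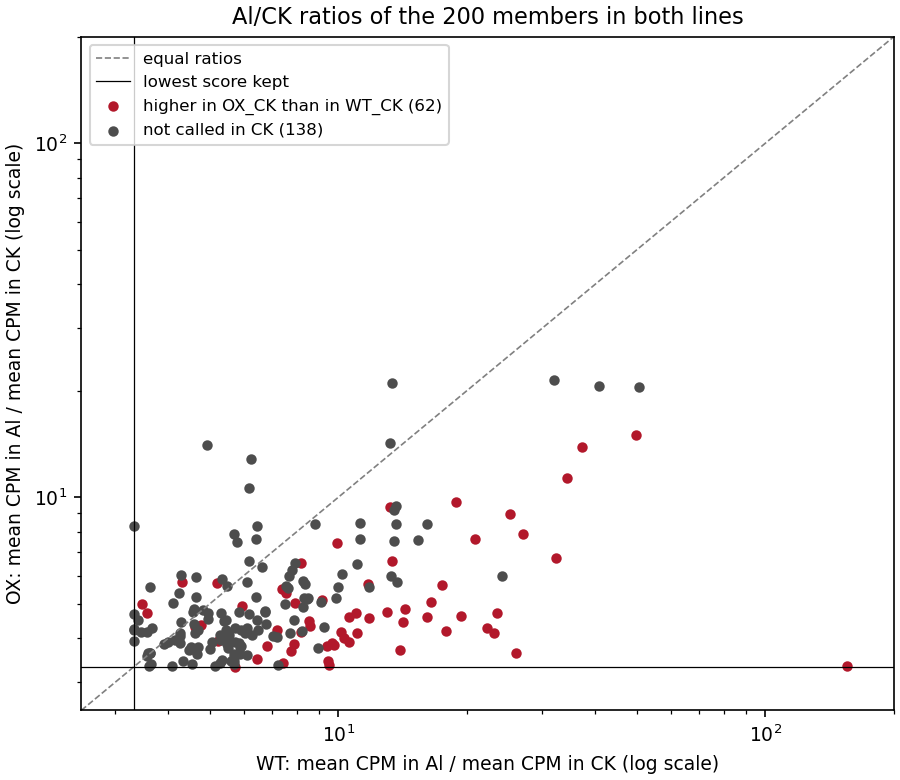
Each point is a member, placed by its ratio of mean CPM in Al over CK in WT (horizontal axis) and in OX (vertical axis), both on log scales. Solid lines mark the lowest score kept and the dashed line equal ratios; red points are the 62 members called higher in OX_CK than in WT_CK. Most points lie below the dashed line, where the ratio is larger in WT.

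Glyma.04G178500 had the highest score, 21.4. It had 309.7, 280.5 and 277.8 CPM in OX_Al and 375.3, 388.8 and 267.8 CPM in WT_Al, against 13.8, 15.8 and 10.9 CPM in OX_CK and 10.01, 12.99 and 9.18 CPM in WT_CK. The lines overlapped in both treatments, and each Al library was far above each CK library. OX did not pass the test against WT in Al (log2 fold change -0.22 ± 0.21 SE, edgeR adjusted p = 0.722) or in CK (0.39 ± 0.22 SE, edgeR adjusted p = 0.432).

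Glyma.13G103100 came next, with a score of 20.6. It had 422.0, 382.2 and 361.7 CPM in OX_Al and 484.5, 656.3 and 385.1 CPM in WT_Al, against 16.8, 19.02 and 20.9 CPM in OX_CK and 11.1, 12.3 and 13.996 CPM in WT_CK. In CK the OX libraries lay above the WT libraries, but the difference did not pass the test (log2 fold change 0.65 ± 0.21 SE, edgeR adjusted p = 0.118) and did pass by DESeq2 (adjusted p = 0.0335). In Al the lines overlapped, with means of 388.6 ± 30.6 CPM in OX_Al and 508.6 ± 137.2 CPM in WT_Al (SD, n = 3 each).

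Members with the highest scores also had larger CPM with Al. For ranks 1 to 20 the median member had a mean of 379.4 CPM in OX_Al and 353.4 CPM in WT_Al, against 36.4 CPM in OX_CK and 17.4 CPM in WT_CK. For the 100 members with the lowest scores it had 115.8 CPM in OX_Al and 121.4 CPM in WT_Al, against 29.7 CPM in OX_CK and 18.7 CPM in WT_CK. The ranks are sorted by Al over CK, so this spread with Al follows from the rule, and nothing is read from it. With Al, 8 members had a mean of 1000 CPM or more in OX_Al and 9 in WT_Al, and none did in OX_CK or WT_CK. The 10 members with the most counts held 29.6% of the set's CPM in OX_Al, 30.5% in WT_Al, 31.6% in OX_CK and 21.8% in WT_CK. Glyma.13G117700, at rank 3, took the most reads of any member in WT_Al. It had 1727, 2112 and 2048 CPM in OX_Al and 2750.5, 2673.5 and 2483 CPM in WT_Al, against 64.5, 88.3 and 135.2 CPM in OX_CK and 45.3, 49.5 and 61.3 CPM in WT_CK. The OX_Al libraries all lay below the WT_Al libraries, and the OX_CK libraries all above the WT_CK libraries. Neither difference passed the test (edgeR adjusted p = 0.543 in Al and 0.0684 in CK). The one in CK did with the replicate number as a block (edgeR adjusted p = 0.0433), by DESeq2 (adjusted p = 0.00425) and without OX_CK replicate 1 (edgeR adjusted p = 0.0148). Its values were not whole numbers in any of the 12 libraries. In each CK library they added up to a whole number with those of another member, 2 places away in identifier order. In WT_CK replicate 1, for example, the estimated counts were 764.07 and 1064.93. Such sums were not limited to these neighbours. For 2 other members, on different chromosomes and both called higher in OX_CK, the estimated counts in WT_Al replicate 1 were 6591.91 and 4669.09. Whether reads were divided between such members, and how far that bears on the levels and the counts of called members given, was not tested. CPM is not divided by gene length, so it gives a gene's share of the reads and does not rank genes by transcript number.

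**Figure D3:**
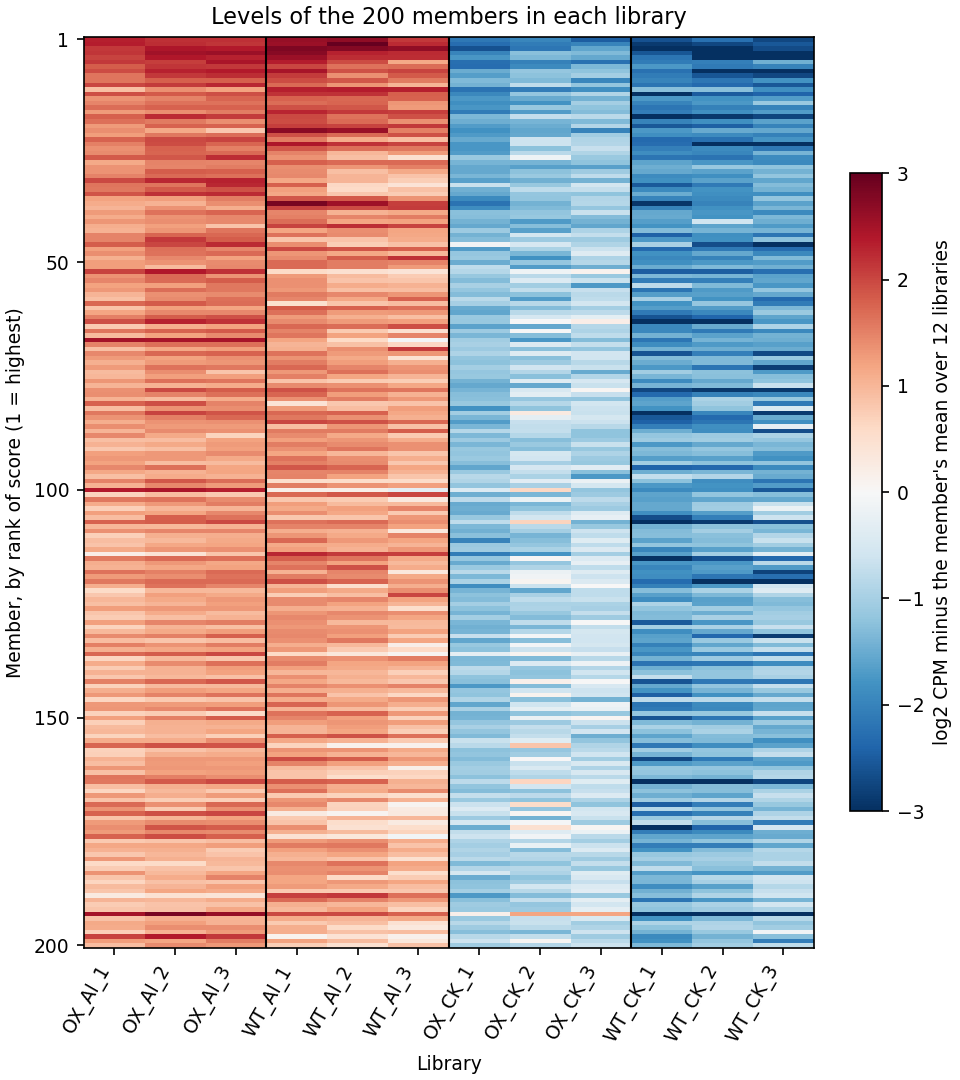
Rows are the 200 members in order of score and columns are the 12 libraries; colour gives log2 CPM minus the member's own mean over the 12 libraries, limited to -3 and 3. The Al libraries are red and the CK libraries blue in nearly all rows, and the OX_CK columns are paler than the WT_CK columns.

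Without Al, a part of the members stood higher in OX than in WT, and none was called lower. The test called 62 of the 200 members (31%) higher in OX_CK than in WT_CK, against 2.93% of all genes tested and 1.8% of the rows past the CPM minimum. No member was called lower by edgeR, against 1.5% of all genes tested and 1.38% of those rows, and 3 members were lower at an unadjusted p under 0.05. The median log2 fold change over the 200 members was 0.56, against 0.01 over the rows past the minimum. All 3 OX_CK libraries lay above all 3 WT_CK libraries for 89 members (44.5%) and below them for 3, against 5.44% and 10.9% of those rows. The CK libraries also entered the ratios that chose the members, so these counts are not independent of that choice. DESeq2 called 86 members higher in OX_CK and 0 lower. The edgeR fit without WT_CK replicate 3 called 1 member lower. The 62 became 30 without OX_CK replicate 2, 47 without OX_CK replicate 3, 38 without WT_CK replicate 1 and 25 without WT_CK replicate 2. They rose to 78 without OX_CK replicate 1 and 67 without WT_CK replicate 3. The shares called over all genes in these fits are not given. A change over all genes therefore cannot be told apart from a change in the members.

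For the 62 called members, the median member had a mean of 60.4 CPM in OX_CK and 17.6 CPM in WT_CK, and the log2 fold changes ran from 0.85 to 6.34 with a median of 1.44. With Al the median member of the 62 had 295.2 CPM in OX_Al and 217.9 CPM in WT_Al. Its ratio of Al over CK was 4.58 in OX and 10.2 in WT, against 4.50 in OX and 5.76 in WT for the 138 other members. The 62 were split off by their CK levels, which also divide these ratios, and the rule set a floor under both ratios. The contrast is thus not independent of the split, and nothing is read from it. OX_CK replicate 1 was the lowest of its group for 54 of the 62, against 71.5% of all members and 22.1% of the rows past the CPM minimum. Replicate 2 was the highest for 37 of the 62, against 36.5% of all members and 20.9% of those rows.

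Glyma.13G203000 had the largest of these differences. It had 467.7, 947.7 and 949.7 CPM in OX_CK against 6.93, 11.8 and 11.7 CPM in WT_CK, a log2 fold change of 6.34 ± 0.38 (SE, edgeR adjusted p = 6.64e-06). In Al it had 2370, 2999 and 2538 CPM in OX_Al against 1660, 1640 and 1417 CPM in WT_Al, and this difference did not pass the test (0.78 ± 0.30 SE, edgeR adjusted p = 0.191). Its ratio of Al over CK was 155 in WT, the highest of the members there, and 3.34 in OX, which put it at rank 193 of 200. No other WT ratio among the members was above 50.7.

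Glyma.10G192900 was second. Its levels were 132.1, 355.6 and 177.8 CPM in OX_CK against 16.5, 29.0 and 33.9 CPM in WT_CK (log2 fold change 3.14 ± 0.42 SE, edgeR adjusted p = 0.00139). The groups did not overlap, and OX_CK replicate 2 stood well above both other OX_CK libraries. In Al its levels were 682.0, 826.7 and 905.5 CPM in OX_Al against 807.1, 776.5 and 482.9 CPM in WT_Al, which overlapped (edgeR adjusted p = 0.851).

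**Figure D4:**
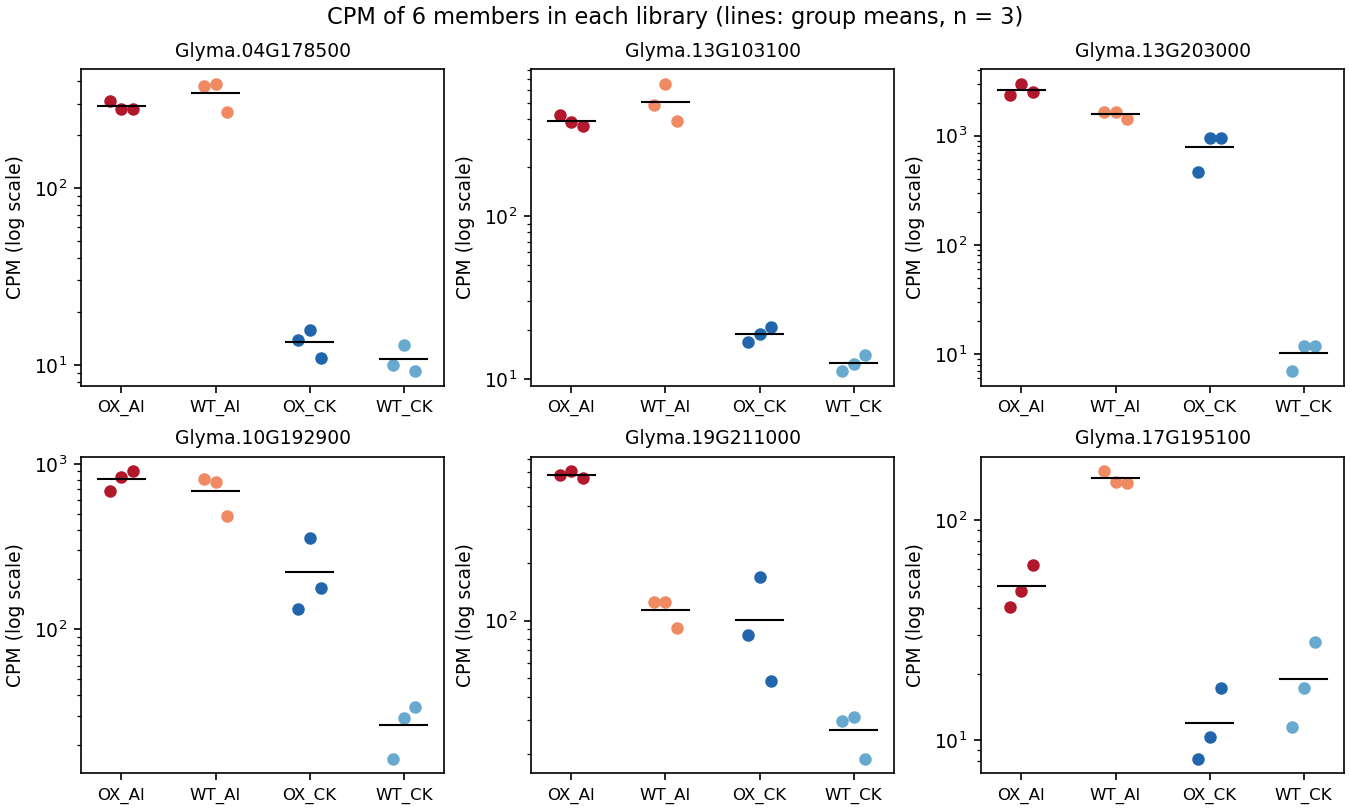
Each panel plots the CPM of 1 member in the 12 libraries on a log scale; points are libraries and lines are group means (n = 3). Glyma.13G203000 and Glyma.10G192900 are high in OX_CK, Glyma.19G211000 is high in OX_Al and Glyma.17G195100 is low in OX_Al relative to WT_Al.

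With Al, members were called in both directions between the lines. The test called 17 members higher (8.5%) and 8 lower (4%) in OX_Al than in WT_Al. Over all genes tested 4.16% were called higher and 1.91% lower, and over the rows past the CPM minimum 3% and 1.67%. The median log2 fold change over the 200 members was 0.02, against -0.06 over those rows. All 3 OX_Al libraries lay above all 3 WT_Al libraries for 52 members and below them for 51, which is 26% and 25.5%, against 9.48% and 17.6% of the rows past the minimum. The 17 members called higher had a median of 234.1 CPM in OX_Al and 86.1 CPM in WT_Al, and the 8 called lower had 104.4 CPM in OX_Al and 214.6 CPM in WT_Al. The Al libraries also entered the ratios that chose the members. Leaving out OX_Al replicate 2 or WT_Al replicate 2 left 11 members called higher, and leaving out OX_Al replicate 1 left 5 called lower. The counts rose to 21 higher and 11 lower without OX_CK replicate 1. DESeq2 called 22 members higher and 13 lower. For these fits no share over all genes is given, so a change over all genes cannot be told apart from a change in the members.

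Glyma.19G211000 was the member furthest above WT in Al. It had 577.0, 608.3 and 558.0 CPM in OX_Al against 125.6, 125.6 and 91.3 CPM in WT_Al (log2 fold change 2.38 ± 0.39 SE, edgeR adjusted p = 0.00319). In CK it had 83.5, 170.0 and 48.4 CPM in OX_CK against 29.7, 31.1 and 18.9 CPM in WT_CK, and was also called higher (1.99 ± 0.39 SE, edgeR adjusted p = 0.0136). The CK call ended without WT_CK replicate 2 (edgeR adjusted p = 0.0503). OX_CK replicate 2, at 170.0 CPM, was above all 3 WT_Al libraries.

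Glyma.11G029000, near the end of the list at rank 198, was second. It had 170.7, 218.9 and 183.3 CPM in OX_Al against 45.4, 57.2 and 45.7 CPM in WT_Al (log2 fold change 1.99 ± 0.19 SE, edgeR adjusted p = 6.14e-05). In CK it had 23.6, 25.1 and 20.1 CPM in OX_CK against 11.2, 15.8 and 17.6 CPM in WT_CK. The CK groups did not overlap, but the difference did not pass the test (0.68 ± 0.19 SE, edgeR adjusted p = 0.0677). With the replicate number as a block it did (edgeR adjusted p = 0.0273), as it did by DESeq2 (adjusted p = 0.0169) and without WT_CK replicate 3 (edgeR adjusted p = 0.0418). Its values were not whole numbers in 6 libraries.

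Glyma.17G195100 and Glyma.19G112800 were the members furthest below WT in Al. Glyma.17G195100 had 40.1, 47.6 and 62.2 CPM in OX_Al against 167.5, 149.8 and 148.0 CPM in WT_Al (log2 fold change -1.60 ± 0.32 SE, edgeR adjusted p = 0.00974). Its call ended without OX_Al replicate 1 (edgeR adjusted p = 0.0574) and without OX_Al replicate 2 (0.0550). Glyma.19G112800 had 51.3, 58.4 and 55.8 CPM in OX_Al against 175.6, 183.9 and 132.8 CPM in WT_Al (-1.54 ± 0.21 SE, edgeR adjusted p = 0.000856). In CK neither passed the test, with means of 11.9 ± 4.71 and 16.4 ± 3.27 CPM in OX_CK against 18.9 ± 8.402 and 22.7 ± 5.21 CPM in WT_CK (SD, n = 3 each).

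**Figure D5:**
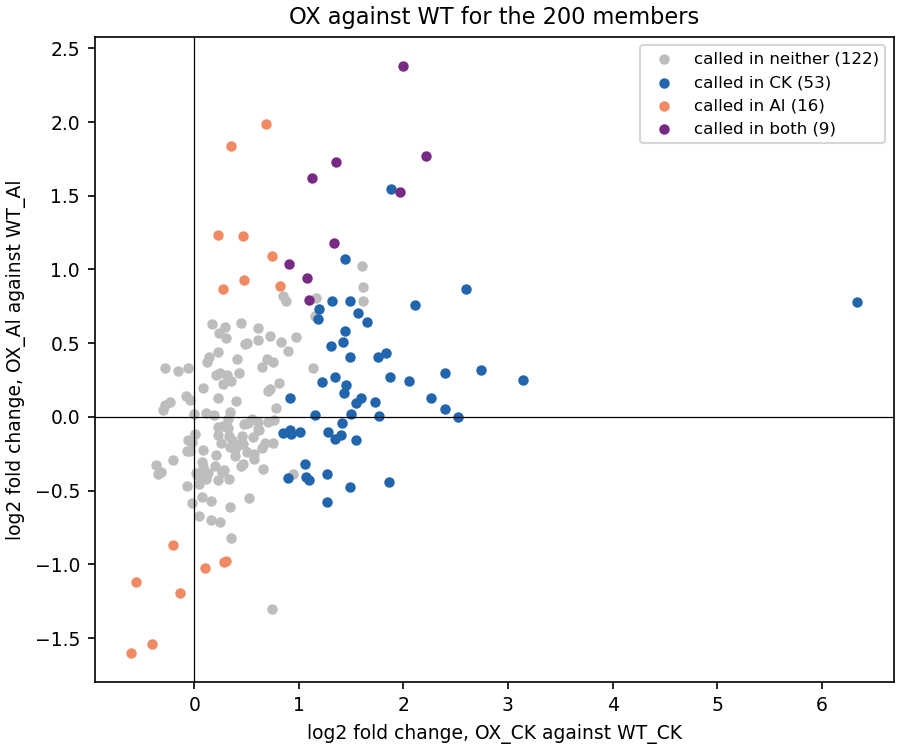
Each point is a member, placed by its log2 fold change of OX_CK against WT_CK (horizontal axis) and of OX_Al against WT_Al (vertical axis). Colours give the comparisons in which edgeR called it. The horizontal values run from -0.61 to 6.34 with 62 members called, all higher in OX, and the vertical values from -1.60 to 2.38 with 17 called higher and 8 lower. The axes share no library.

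The response to Al itself differed between the lines for 14 members by the interaction term of the fit, larger in OX for 1 and smaller in OX for 13. Over all genes tested 0.88% were called larger and 0.748% smaller, and over the rows past the CPM minimum 0.689% and 0.369%. This difference is built from the ratios that chose the members, so it is given as a description. DESeq2 called 48, of which 3 were larger and 45 smaller in OX, and at an edgeR adjusted p under 0.01 there was 1, smaller in OX. For neither of these counts is a share over all genes given. The shares above are those of edgeR under 0.05 and do not apply to them. For the 13 members, mean CPM in OX_Al ran from 94.4 to 2635 with a median of 338.8, and in WT_Al from 128.8 to 2034 with a median of 338.9. In OX_CK it ran from 22.7 to 788.4 with a median of 64.9, and in WT_CK from 10.1 to 62.9 with a median of 17.7. The 13 held 2 patterns. In 11 of them OX was called higher than WT in CK and not called in Al, with medians of 391.5 CPM in OX_Al and 338.9 CPM in WT_Al, against 81.1 CPM in OX_CK and 17.3 CPM in WT_CK. In the other 2, OX was called lower than WT in Al and not called in CK, with medians of 209.99 CPM in OX_Al and 430.05 CPM in WT_Al, against 39.6 CPM in OX_CK and 35.3 CPM in WT_CK. The 14 calls rose to 35 when OX_CK replicate 1 was dropped and to 22 when WT_Al replicate 3 was. Dropping OX_CK replicate 2 gave 7, and dropping WT_CK replicate 2 gave 5. For WT_Al replicates 1 and 2 the totals were 6 and 4, and for OX_Al replicates 1, 2 and 3 they were 4, 6 and 3. No share over all genes stands beside these totals either. They cannot separate a change in the members from one over all genes.

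Within a group the members tended to be high or low together. OX_Al replicate 1 was the lowest of its group for 156 members (78%), against 31.6% of the rows past the CPM minimum. WT_Al replicate 3 was the lowest for 137 (68.5%), against 35.4% of those rows, and WT_Al replicate 1 was the highest for 130 (65%), against 23.1%. OX_CK replicate 1 was the lowest for 143 (71.5%), against 22.1%, and WT_CK replicate 1 for 122 (61%), against 39.1%. Members share their libraries, so these shares are descriptions of 12 libraries. The median coefficient of variation of a member over the 3 libraries was 11.6% in OX_Al, 14.4% in WT_Al, 23.8% in OX_CK and 20.5% in WT_CK. For the rows past the minimum it was 9.54% in OX_Al, 11.4% in WT_Al, 14.5% in OX_CK and 15.4% in WT_CK.

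With both lines pooled, all 6 Al libraries were above all 6 CK libraries for 195 members, against 9.18% of the rows past the CPM minimum, and nothing is read from this count. In the other 5, Glyma.19G211000, Glyma.01G153000, Glyma.13G173500, Glyma.10G295300 and Glyma.16G060800, the highest CK value was that of OX_CK replicate 2 and the lowest Al value that of a WT_Al library. In CPM, the gap was widest in Glyma.13G173500, with 1053 CPM in OX_CK replicate 2 and 643.9 CPM in WT_Al replicate 2. Its group means were 2120 CPM in OX_Al, 740.1 CPM in WT_Al, 567.4 CPM in OX_CK and 163.2 CPM in WT_CK.

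By the chromosome written in the identifiers, members lay on all 20 chromosomes. Chromosome 13 held 20 members and chromosome 17 held 15, which is 1.60% and 1.61% of their rows past the CPM minimum, while chromosomes 16 and 20 held 5 each, which is 0.822% and 0.617%. Over all chromosomes the share was 1.09%. In identifier order, 5 pairs of members lay within 5 places of each other, and 1 pair was directly adjacent. No share over the other rows is given, so these counts are not called few or many. The adjacent members, Glyma.04G208300 and Glyma.04G208400, had means of 251.2 and 68.6 CPM in OX_Al and of 213.3 and 84.02 CPM in WT_Al, against 52.1 and 12.4 CPM in OX_CK and 14.9 and 11.05 CPM in WT_CK. In CK, OX was called higher than WT for the first (log2 fold change 1.87 ± 0.23 SE, edgeR adjusted p = 0.000746), and the second did not pass the test (0.21 ± 0.22 SE, edgeR adjusted p = 0.730). Both had 1 library with a value that was not whole. Reads of overlapping or antisense neighbours could not be told apart, since the strand setting is not given in the sources used here.

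MSTRG.1842 was the only member without a Glyma identifier. It had 144.9, 165.4 and 193.7 CPM in OX_Al and 108.4, 68.9 and 75.9 CPM in WT_Al, against 37.9, 28.9 and 21.95 CPM in OX_CK and 21.1, 6.47 and 2.69 CPM in WT_CK. The WT_CK libraries spread widely around it, and OX did not pass the test against WT in CK (edgeR adjusted p = 0.129) or in Al (edgeR adjusted p = 0.352). In CK it did pass by DESeq2 (adjusted p = 0.0248) and without WT_CK replicate 1 (edgeR adjusted p = 0.00436). Values that were not whole numbers in at least 1 library occurred in 115 members (57.5%), against 61.1% of the rows past the CPM minimum.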

How the data were processed

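Root RNA of 12 libraries was measured by RNA-seq. The authors deposited a single table of estimated counts with decimals, 1 row to a gene, and the column totals show no scaling between libraries. In it, 8 rows of stray text without values were left out. Per the submitters' processing notes, the tools were HTSeq 0.6.0, TopHat2, HISAT2 2.1.0, Bowtie2 2.2.3 and CASAVA, with no role attached. Build, annotation, strandedness and the origin of the decimals are not stated in the sources used. Counting that yields decimals may divide reads between similar genes.

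For the rule, CPM came from plain column sums and the decimals were kept. For the tests, planned for whole counts, the estimated counts were rounded to whole numbers. Genes were filtered with filterByExpr (minimum count 10, minimum total 15), which kept all 200 members among 37170 genes. With TMM scaling, a model of 1 mean per group was fitted to all 12 libraries in edgeR 4.0.16, under R 4.3.3. Its quasi-likelihood F-test (robust, two-sided) was adjusted by Benjamini-Hochberg among the genes that entered it. An approximate SE was had by dividing the fold change on the log2 scale by the root of F. The fit was also run on simulated counts, for OX_CK against WT_CK alone and with the same spread set for all genes. Nothing is read from that run about the spread of these libraries. In a check added after seeing the data, with plain library sizes in place of TMM, the median log2 fold change of all genes was -0.18 for Al in OX and -0.22 for Al in WT, against -0.02 and -0.04 with TMM. CPM ratios carry that shift. Counting error alone is small at the members' median of 1109 counts per library and larger at their lowest count, 46.

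The members and lists were chosen with earlier results of these data known. Gene lists, promoter motifs and protein families were planned from descriptions and sequences, and since no identifier matched the reference, none was built. Named by rule were the 2 members with the highest score. All others named were chosen after their values were seen. Alternatives were RLE size factors, no filter, DESeq2 1.42.0, a replicate block, an adjusted p under 0.01, whole-valued genes alone, other CPM minimums, TMM-scaled CPM and leaving out each library.

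Same-numbered libraries were checked for pairing by correlating their deviations from the group means over genes, on the data alone. The correlations for replicates 1, 2 and 3 were 0.413, 0.125 and 0.582 for OX_CK against WT_CK and 0.129, 0.219 and 0.361 for WT_Al against WT_CK, all above 0.1, so the numbers were taken as pairing these groups. The correlations were 0.0332, -0.131 and -0.0032 for OX_Al against WT_Al and 0.204, -0.0040 and 0.163 for OX_Al against OX_CK. These groups were not taken as paired. The labels do not state a pairing, and the bound of 0.1 is not a test of one. The values printed come from the fit without the block, so they leave any pairing out. The blocked value stands beside a call that it changes. In the blocked fit the block covered all 4 groups, also those not taken as paired.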

Additional observations from a re-analysis of the deposited data

Results flagged for a closer look

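The Al response differed between OX and WT for 14 of the 200 members by the interaction term of the edgeR fit. It was called larger in OX for 0.5% of members and smaller for 6.5%, against 0.88% and 0.748% of all genes tested. At an adjusted p under 0.01, 1 member was called, and leaving out 1 library at a time gave 3 to 35, with no share over all genes given for these counts. Among the members named above, Glyma.13G203000 differed by a log2 fold change of -5.56 ± 0.45 (SE, edgeR adjusted p = 0.000156) and kept its call in all 12 fits that left out a library. Glyma.10G192900 differed by -2.89 ± 0.55 (edgeR adjusted p = 0.0240) and kept its call in 6 of these fits, with adjusted p-values of up to 0.0722. Glyma.11G029000 differed by 1.31 ± 0.26 (edgeR adjusted p = 0.0307) and kept its call in 5 of them, with adjusted p-values of up to 0.0924. Glyma.04G208300 differed by -1.60 ± 0.31 (edgeR adjusted p = 0.0249) and also kept its call in 5 of them, with adjusted p-values of up to 0.0662. The ratios that make up this difference also chose the members.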

How the results depend on the processing

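RLE size factors, no filter and the replicate block left the total of called members in each comparison within 1.5 times its value. The block gave 64 members for OX against WT in CK, 32 in Al (19 higher and 13 lower, against 17 and 8 without it) and 18 for the difference of the Al response. Among the members named in the report it changed the calls of Glyma.11G029000 and Glyma.13G117700 in CK and no other. At an adjusted p under 0.01 the counts were 20 in CK, 15 in Al and 1 for the difference. The DESeq2 Wald test gave 86 in CK, 22 higher and 13 lower in Al, and 48 for the difference, with no share over all genes beside them. Of the 85 whole-valued members, refitted with whole-valued genes alone, 85 were called for Al in each line, 28 for OX against WT in CK, 12 in Al and 6 for the difference. Leaving out 1 library at a time gave 25 to 78 calls in CK, 17 to 32 in Al and 3 to 35 for the difference. It gave 199 to 200 for Al in OX and 200 in WT. For none of the counts of called members under these settings is a share over all genes given. A change over all genes therefore cannot be told apart from a change in the members. The list itself turned on the CPM minimum: rows with a score of 2 or more numbered 1050 at a minimum of 5 CPM and 328 at 20 CPM, and 100 and 81 of the 200 members stayed in the lists made there. Whole-valued rows alone gave 262 such rows and kept 85 members. Leaving out a library gave 587 to 725 such rows, 200 members each time, and 178 to 198 of them shared. Under the rule, a minimum of 20 CPM removes every member with a lower CK mean, and the median member had 18.8 CPM in WT_CK. With a minimum of 5 CPM, members leave the list only where newly admitted rows score higher. The 85 members kept among whole-valued rows were all the whole-valued members. The cause of the other changes was not tested, beyond the fewer genes and libraries that some settings hold.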
